A study of Mus musculus with 8 samples.

Results

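The CC chemokine genes examined here are Ccl2, Ccl3, Ccl4, Ccl5, Ccl6, Ccl7, Ccl8, Ccl9, Ccl12 and Ccl24, 10 of the 32903 genes to which the deposited transcripts could be summed. They were chosen by gene symbol, and all 10 had a matched transcript. RNA-seq was done on Kupffer cells, macrophages that live in the liver sinusoids, of wild-type mice. The 5 naive libraries came from untreated animals, and the labels name no vehicle for them. The 3 CCl4 libraries came from animals that received carbon tetrachloride in corn oil, 0.75 mL/kg at each dosing, 3 times a week over 8 weeks, a toxin that injures hepatocytes and scars the liver. The labels give no strain, age, isolation method or number of animals per library, and number the treated libraries 1, 2-4 and 3. Whether library 2-4 is a pool, and whether it shares an animal with library 3, is not given. The comparison asked how Kupffer cells of fibrotic livers differ from those of naive livers. The group name CCl4 stands for carbon tetrachloride, and Ccl4 in lower case stands for the chemokine gene.

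CC chemokines are small secreted proteins named for a pair of adjacent cysteines near the amino terminus. They bind to proteoglycans and form gradients, and leukocytes follow these through G protein-coupled receptors. Ccl2, Ccl7 and Ccl12 act on Ccr2 and draw monocytes from blood into tissue. Ccl8 in the mouse acts mainly on Ccr8. Ccl3, Ccl4 and Ccl5 draw monocytes, T cells and NK cells, and Ccl3 and Ccl5 act on Ccr1. Ccl6 and Ccl9 are rodent chemokines that act on Ccr1, and Ccl24, or eotaxin-2, acts on the eosinophil receptor Ccr3. Kupffer cells and the monocytes that enter an injured liver are both known sources of these proteins.

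Values are TPM, reads per transcript length scaled to the same total in each library, from which depth cannot be recovered. The labels do not tie each library to its own mouse, so the p-values reflect the variation among these libraries, some of which may be technical. Genes were compared with limma on log2(TPM + 1) over 15629 genes, and adjusted p-values are Benjamini-Hochberg values over all of them. Naive replicate 5 stood apart from the other naive libraries (Pearson's r across genes of 0.943 to 0.951 with them, against 0.968 to 0.981 among them). It was also nearer to the CCl4 libraries (0.878 to 0.888) than naive replicates 1 to 4 were (0.813 to 0.846). The labelled cell type was checked against its markers. All 9 Kupffer cell markers were lower in the CCl4 libraries (limma adjusted p under 0.05), where 22.5% of all tested genes were. Their summed TPM was 303.2 to 423.3 in CCl4 libraries against 2666 to 5707 in naive libraries. Clec4f, a lectin restricted to Kupffer cells, was at 877.5 to 1928 TPM in naive and 65.6 to 87.2 TPM in CCl4 libraries. All 9 sinusoidal endothelium markers, genes of another liver cell type, were present in the naive libraries. They were also lower (22.5% of all tested genes were), with sums of 5347 to 10092 TPM in naive and 205.0 to 543.3 TPM in CCl4 libraries. In such bulk samples, fewer cells of a type and less RNA per cell cannot be told apart.

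A gene was tested if at least 3 libraries reached 1 TPM, and 9 of the 10 chemokine genes reached 1 TPM in libraries of both groups. By limma 5 of these 9 passed the threshold of 0.05, where 37.8% of all tested genes did, a background that also holds genes that reached 1 TPM in only 1 group. Ccl2, Ccl3, Ccl4 and Ccl9 were higher in the CCl4 libraries, 4 of 9, where 15.3% of all tested genes were. Ccl24 was lower, 1 of 9, where 22.5% of all tested genes were. Ccl5, Ccl6, Ccl7 and Ccl12 did not pass. Of the 9 genes, the same 5 had groups that did not overlap (36.9% of all tested genes), 4 upward (16.3%) and 1 downward (20.6%). The groups of Ccl5, Ccl6, Ccl7 and Ccl12 overlapped. Calls and overlap were read from the same values, so the second count adds no separate support. The median log2 fold change was 0.34 over the 9 genes and -0.06 over all tested genes. Ccl8 reached 1 TPM in naive libraries alone, so it could be tested only through the group where it was high, and it is described without a test. Without naive replicate 5 the counts stayed at 4 and 1, and without CCl4 replicate 2-4 they were 4 and 2, Ccl5 being then lower.

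**Figure D1:**
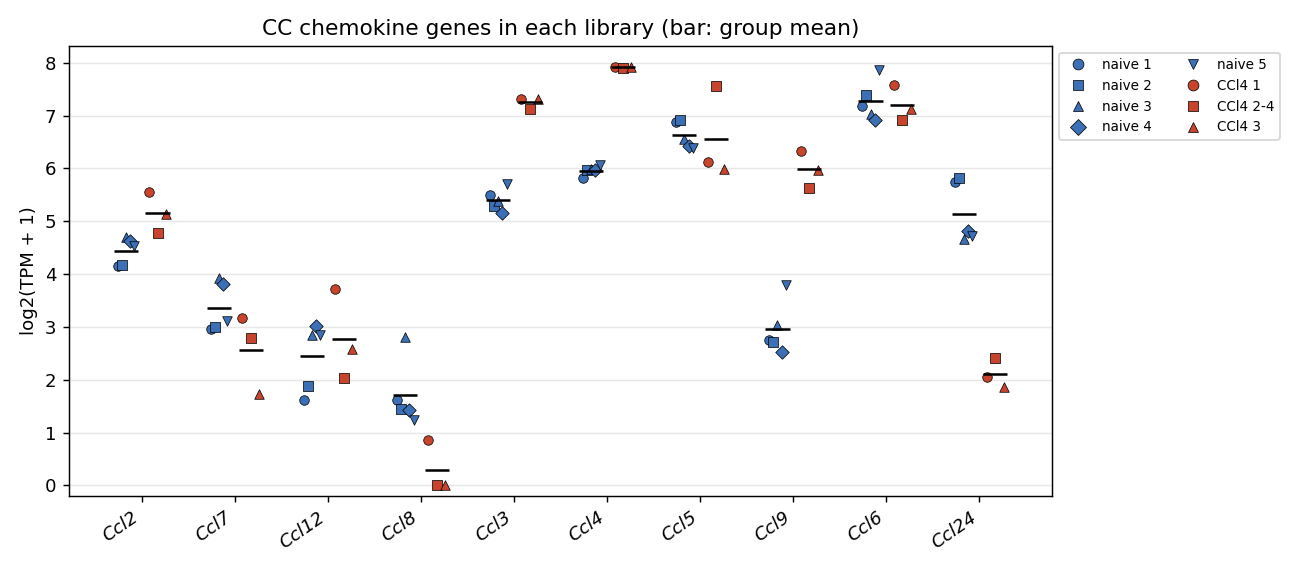
Each point is the level of a chemokine gene in a library, as log2(TPM + 1), with naive libraries in blue, CCl4 libraries in red and a bar at the group mean. Ccl3, Ccl4 and Ccl9 of the CCl4 libraries lie above every naive library, Ccl24 lies below, and Ccl5 of CCl4 replicate 2-4 lies far above the other CCl4 libraries.

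Ccl3 and Ccl4, also called macrophage inflammatory proteins 1-alpha and 1-beta, rose together and with little spread. Ccl4 was at 55.2, 61.4, 62.2, 61.5 and 66.3 TPM in naive replicates 1 to 5 and at 241.9, 237.7 and 240.7 TPM in CCl4 replicates 1, 2-4 and 3. The means were 61.3 ± 3.97 TPM (SD, n = 5) and 240.1 ± 2.16 TPM (SD, n = 3), a 3.91-fold difference. The log2 fold change was 1.95 (SE 0.114, limma adjusted p = 1.59e-06), the smallest SE among the 10 genes. Ccl3 was at 44.3, 38.3, 40.8, 34.9 and 50.9 TPM in the naive libraries and at 158.0, 138.8 and 157.9 TPM in the CCl4 libraries. It rose by 1.84 (SE 0.144, limma adjusted p = 5.06e-06), with means of 41.8 ± 6.11 TPM (SD, n = 5) and 151.6 ± 11.05 TPM (SD, n = 3). Every CCl4 library held more of both transcripts than any naive library. The ratio of Ccl3 to Ccl4 within a library, which no rescaling of the library can change, was 0.567 to 0.802 in naive and 0.584 to 0.656 in CCl4 libraries, so the ranges overlapped.

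The genes for Ccl3 (GRCm38 chromosome 11, 83647843 to 83649378, minus strand) and Ccl4 (chromosome 11, 83648624 to 83664683, plus strand) overlap in the RefSeq annotation. The overlap comes from a predicted Ccl4 transcript, XM_011248832, that begins inside Ccl3 on the opposite strand. Whether strand was used in the quantification is not given in the sources used here, so reads of Ccl3 and of this transcript may not be separable. It held 18.8 to 26.3 TPM in naive and 65.7 to 84.1 TPM in CCl4 libraries. The curated transcript NM_013652 alone was at 33.4 to 42.6 TPM and 157.8 to 172.0 TPM. With Ccl4 read from that transcript only, an alternative added after seeing the data, its log2 fold change was 2.07.

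Ccl9 (chromosome 11, 83572917 to 83578636, minus strand), a Ccr1 ligand also known as macrophage inflammatory protein-1 gamma, had the largest rise of the 10 genes. Its naive levels were 5.71, 5.52, 7.19, 4.78 and 12.8 TPM, and its CCl4 levels 79.7, 48.5 and 62.1 TPM. The highest naive library, replicate 5, was still well below the lowest CCl4 library. The means were 7.20 ± 3.25 TPM (SD, n = 5) and 63.4 ± 15.6 TPM (SD, n = 3), an 8.81-fold difference. The log2 fold change of Ccl9 was 3.02 (SE 0.276, limma adjusted p = 1.38e-05), and 37 of the 15629 tested genes had a larger rise. Without naive replicate 5 it was 3.23.

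Ccl6 (83587886 to 83593087, same strand), the neighbouring chemokine gene and the other Ccr1 ligand of this type, did not pass the test. It was at 143.8, 167.4, 129.5, 120.5 and 232.8 TPM in naive and at 190.6, 120.5 and 138.6 TPM in CCl4 libraries, and the groups overlapped. The mean was 158.8 ± 45.0 TPM (SD, n = 5) against 149.9 ± 36.4 TPM (SD, n = 3), and the log2 fold change -0.07 (SE 0.226, limma adjusted p = 0.842). Its sign was positive under some other settings, median-of-ratios rescaling among them. Ccl6 was the most abundant of the 10 genes in every naive library. A noncoding gene, E230016K23Rik, spans Ccl6 in the annotation and held 4.44 to 7.49 TPM in any library. The ratio of Ccl9 to Ccl6 within a library was 0.0330 to 0.0555 in naive and 0.403 to 0.448 in CCl4 libraries. This pair was singled out after its values were seen, and its ratio is given without a test.

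**Figure D2:**
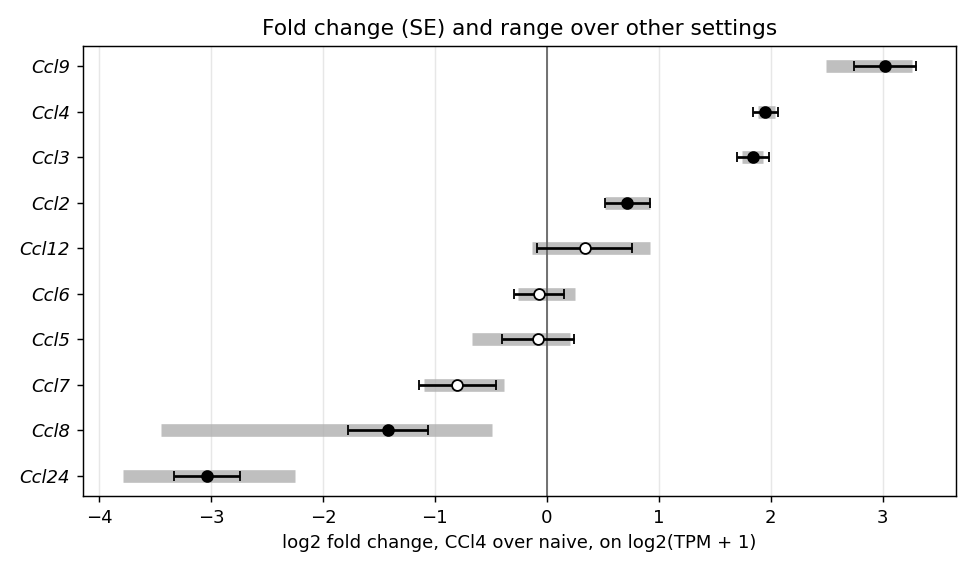
Points are log2 fold changes of CCl4 over naive libraries on the log2(TPM + 1) scale with their SE, filled where the limma adjusted p was under 0.05 (Ccl8 is filled although only naive libraries carried it past the filter), and grey bands span the values under other settings and without each library. Ccl9 has the highest value at 3.02 and Ccl24 the lowest at -3.04, while the bands of Ccl5, Ccl6 and Ccl12 cross 0.

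The stretch of 250 bases before the RefSeq start of each gene (GRCm38.p6) is shown for Ccl3 and Ccl9, which rose, for Ccl6, the neighbour of Ccl9, which did not pass the test, and for Ccl8, which was scarce. RefSeq windows were matched for 5 of the 10 genes. They are written 5′ to 3′ on the strand of the gene, at chr11:83649379-83649628 for Ccl3, chr11:83578637-83578886 for Ccl9 and chr11:83593088-83593337 for Ccl6, all on the minus strand, and at chr11:82114935-82115184 on the plus strand for Ccl8. Capitals mark matches, on either strand, to a TATA box (TATAAA), AP-1 (TGANTCA), PU.1 (GAGGAA), or the STAT6 or NF-kappaB consensus.
Ccl3: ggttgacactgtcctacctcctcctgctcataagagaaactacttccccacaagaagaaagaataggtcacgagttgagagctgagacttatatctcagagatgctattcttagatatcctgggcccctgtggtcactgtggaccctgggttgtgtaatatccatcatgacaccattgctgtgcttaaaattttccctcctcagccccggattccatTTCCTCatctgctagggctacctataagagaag
Ccl9: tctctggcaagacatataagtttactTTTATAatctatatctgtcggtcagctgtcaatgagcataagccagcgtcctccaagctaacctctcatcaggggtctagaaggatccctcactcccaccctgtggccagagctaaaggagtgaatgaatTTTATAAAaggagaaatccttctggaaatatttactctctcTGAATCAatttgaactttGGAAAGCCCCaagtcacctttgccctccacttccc
Ccl6: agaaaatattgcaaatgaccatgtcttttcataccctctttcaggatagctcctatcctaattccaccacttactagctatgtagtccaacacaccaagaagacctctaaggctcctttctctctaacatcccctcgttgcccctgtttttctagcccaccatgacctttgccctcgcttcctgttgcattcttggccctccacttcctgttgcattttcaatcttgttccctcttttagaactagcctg
Ccl8: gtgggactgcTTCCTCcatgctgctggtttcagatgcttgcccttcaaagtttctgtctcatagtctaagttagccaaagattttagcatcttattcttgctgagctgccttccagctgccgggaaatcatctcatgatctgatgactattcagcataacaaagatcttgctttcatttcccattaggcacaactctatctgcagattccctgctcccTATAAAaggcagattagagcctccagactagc
The Ccl9 window held an NF-kappaB match 35 to 26 bases and an AP-1 match 53 to 47 bases before the start. It also held 3 TATA box matches, of which 2 overlap each other on opposite strands. Over all 32851 RefSeq windows of this length, 7.25% held an NF-kappaB match, 6.75% an AP-1 match, 12.4% a TATA box, 5.85% a STAT6 match and 23.3% a PU.1 match. The Ccl6 window held no match to any of the 5 motifs, and the Ccl3 window only a PU.1 match, 33 to 28 bases before the start. The best local alignment of the Ccl6 and Ccl9 windows covered 17 bases, of which 16 were identical. Ccl8 held a TATA box 32 to 27 bases before the start and a PU.1 match 240 to 235 bases before it. Ccl12, whose window is not printed, also held a TATA box, at 31 to 26 bases, and a PU.1 match at 130 to 125 bases. These matches describe letters in a window and not bound sites.

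Among the ligands of Ccr2, the monocyte chemoattractant Ccl2 was higher and Ccl7 and Ccl12 did not pass the test. With Ccl8 they lie in order Ccl2, Ccl7, Ccl12, Ccl8 on the plus strand of chromosome 11, from 82035577 to 82116799. Ccl2 was at 16.7, 17.0, 24.9, 23.8 and 22.3 TPM in naive and at 45.8, 26.6 and 34.2 TPM in CCl4 libraries. The groups did not overlap, though CCl4 replicate 2-4 lay just above the highest naive library. Ccl2 rose by 0.72 (SE 0.203, limma adjusted p = 0.0169), from 20.9 ± 3.83 TPM (SD, n = 5) to 35.5 ± 9.67 TPM (SD, n = 3). This call was lost without CCl4 replicate 1 (0.52, limma adjusted p = 0.0774) and without CCl4 replicate 3 (0.73, limma adjusted p = 0.0513).

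Ccl7, monocyte chemotactic protein-3, lies next to Ccl2 and did not pass the test. Its levels were 6.75, 7.04, 14.1, 13.1 and 7.68 TPM in naive and 7.97, 5.90 and 2.33 TPM in CCl4 libraries, which overlapped. The log2 fold change of Ccl7 was -0.80 (SE 0.342, limma adjusted p = 0.0912), and it passed under 3 of 20 other settings. These were the fit without CCl4 replicate 1 (-1.10, limma adjusted p = 0.0377), library weights (-0.98, limma adjusted p = 0.0492) and the replicate block. The ratio of Ccl2 to Ccl7 within a library was 1.76 to 2.90 in naive and 4.50 to 14.6 in CCl4 libraries, given without a test because the pair was chosen after its values were seen. Ccl12, the mouse monocyte chemoattractant protein-5, was at 2.05, 2.69, 6.24, 7.05 and 6.19 TPM in naive and 12.1, 3.09 and 5.02 TPM in CCl4 libraries. Its log2 fold change, 0.34 (SE 0.421, limma adjusted p = 0.568), was -0.13 without CCl4 replicate 1, so that library set its sign.

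Ccl8 was scarce in both groups. It was at 2.06, 1.71, 5.995, 1.67 and 1.35 TPM in naive libraries and 0.804 TPM in CCl4 replicate 1, and it was listed at 0 in CCl4 replicates 2-4 and 3. All 3 CCl4 libraries lay below every naive library. Its fitted log2 fold change, -1.42, moved with the pseudocount, to -3.45 with 0.1 and -0.49 with 5, and is given as a description only. Naive replicate 3, at 5.995 TPM, lay apart from the other naive libraries, and without it the value was -1.14.

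Ccl24, eotaxin-2, an attractant of eosinophils made by macrophages, had the largest fall of the 10 genes. It was at 52.3, 55.2, 24.3, 27.0 and 25.2 TPM in naive and at 3.15, 4.33 and 2.64 TPM in CCl4 libraries. The naive libraries formed a higher pair, replicates 1 and 2, and a lower trio, and all lay above the CCl4 libraries. The means were 36.8 ± 15.5 TPM (SD, n = 5) and 3.37 ± 0.868 TPM (SD, n = 3), a level 10.9-fold lower in CCl4. Ccl24 fell by 3.04 on the log2 scale (SE 0.299, limma adjusted p = 2.27e-05), and 289 of the tested genes had a larger fall. Its gene lies apart from the others (GRCm38 chromosome 5, 135569935 to 135573123). Both its transcripts were lower, the predicted XM_006504444 at 9.01 to 30.5 TPM in naive and at most 0.990 TPM in CCl4 libraries, and NM_019577 at 11.5 to 25.1 and 2.64 to 3.34 TPM. Kupffer cell and endothelial markers fell beside it. The summed Kupffer cell markers were at 5005, 5707, 2666, 3610 and 3804 TPM in naive replicates 1 to 5, and the summed endothelial markers at 7529, 9561, 10092, 7717 and 5347 TPM. Like Ccl24, 7 of the 9 Kupffer cell markers were highest in naive replicate 2 (Marco and Cd163 were highest in replicate 5), and all 9 were lowest in replicate 3. Of the 9 endothelial markers 4 were highest in replicate 2 and 5 in replicate 3, and all were lowest in replicate 5. The part of either cell type in the fall of Ccl24 was not tested.

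Ccl5 (chromosome 11, 83525778 to 83530518, minus strand), also called RANTES, a ligand of Ccr1 made by cytotoxic lymphocytes and macrophages, did not pass the test and differed widely within the CCl4 group. It was at 116.9, 120.6, 93.3, 85.5 and 82.8 TPM in naive libraries, at 68.7 and 62.2 TPM in CCl4 replicates 1 and 3, and at 188.7 TPM in CCl4 replicate 2-4. Replicates 1 and 3 lay below every naive library and replicate 2-4 above them all. The means were 99.8 ± 17.8 TPM (SD, n = 5) and 106.5 ± 71.2 TPM (SD, n = 3), and the log2 fold change was -0.08 (SE 0.319, limma adjusted p = 0.870). Without CCl4 replicate 2-4, it was -0.59 (limma adjusted p = 0.0371), while its sign was positive after median-of-ratios or quantile scaling of all libraries.

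Markers of T and NK cells, as a sum, ran in the same order as Ccl5 across the CCl4 libraries but not across the naive ones. The summed TPM of their 12 markers was 349.2 in CCl4 replicate 2-4, 123.6 in replicate 1 and 105.9 in replicate 3, and 228.4 to 325.9 in naive libraries, and none of the 12 was at 0 in all CCl4 libraries. Naive replicate 5, with the lowest naive Ccl5, had a sum of 295.5 TPM. Of the 12, the T cell receptor complex genes Cd3d, Cd3e and Cd3g were lower by limma (22.5% of all tested genes were) and the others did not pass. Cd3d was lowest of the CCl4 group in replicate 2-4, at 4.94 TPM against 5.16 and 5.82 TPM in replicates 1 and 3. Gzma, granzyme A, was at 117.1 TPM in replicate 2-4 and at 25.7 and 16.8 TPM in replicates 1 and 3. Xcl1, a lymphocyte chemokine, was at 67.2, 24.9 and 29.0 TPM in the same order. B cell markers were also highest of the CCl4 group in replicate 2-4, with a sum of 137.5 TPM against 61.6 and 56.2 TPM. The noncoding gene Gm32650 spans Ccl5 in the annotation and held 1.38 to 12.5 TPM. The part of lymphocytes in the level of Ccl5 was not tested.

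**Figure D3:**
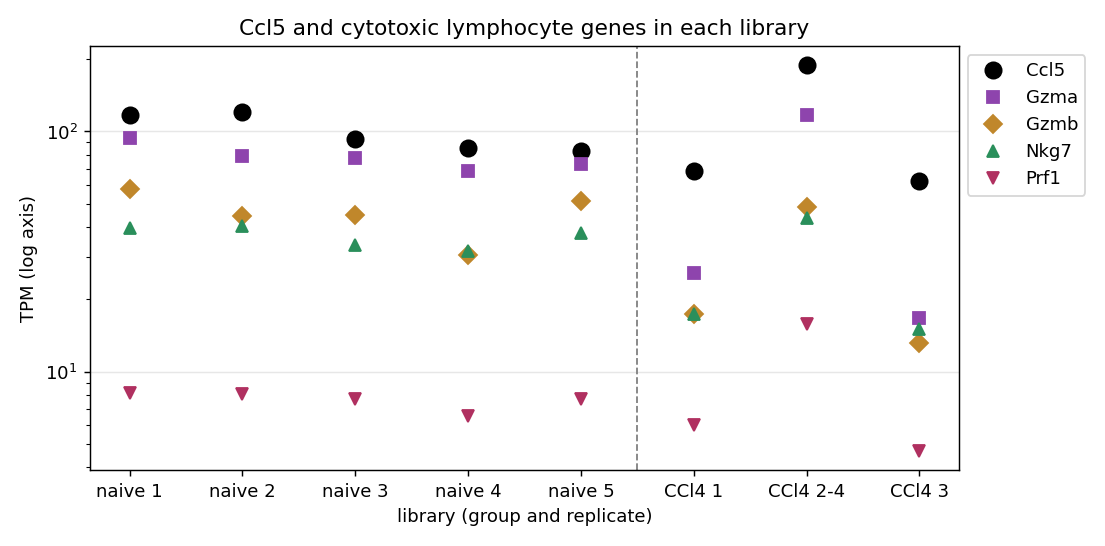
Each column is a library and each symbol its TPM (log axis) of Ccl5 or of the cytotoxic lymphocyte genes Gzma, Gzmb, Nkg7 and Prf1, of which the last 3 were chosen after their values were seen. In CCl4 replicate 2-4 Ccl5 reached 188.7 TPM and Gzma 117.1 TPM, and all 5 genes were higher there than in CCl4 replicates 1 and 3.

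The order of the levels changed between the groups. In naive libraries the means ran from Ccl6 through Ccl5, Ccl4, Ccl3, Ccl24 and Ccl2 to Ccl7, Ccl9, Ccl12 and Ccl8. Of the neighbours in that order, the ranges of Ccl4 and Ccl3, of Ccl5 and Ccl4, and of Ccl2 and Ccl7 did not overlap, while those of the other neighbours did. Ccl6 and Ccl5 overlapped only barely, since the lowest Ccl6 value was 120.5 TPM and the highest Ccl5 value 120.6 TPM in another library. In CCl4 libraries the order was Ccl4, Ccl3, Ccl6, Ccl5, Ccl9, Ccl2, Ccl12, Ccl7, Ccl24 and Ccl8. There Ccl3 and Ccl6 overlapped, as did Ccl6 and Ccl5, Ccl5 and Ccl9, Ccl12 and Ccl7, and Ccl7 and Ccl24. The summed TPM of the 10 genes was 445.7, 476.8, 408.5, 379.8 and 508.2 in naive and 808.7, 774.2 and 705.6 in CCl4 libraries. Ccl3 and Ccl4 made up 17.9% to 22.4% and 29.9% to 34.1% of that sum in CCl4 libraries, against 8.04% to 10.01% and 12.4% to 16.2% in naive libraries. The share of Ccl9 was 1.16% to 2.52% in naive and 6.27% to 9.86% in CCl4 libraries. Ccl6 went from 31.7% to 45.8% of the sum in naive to 15.6% to 23.6% in CCl4 libraries at similar TPM, while Ccl24 held 4.96% to 11.7% in naive and at most 0.560% in CCl4 libraries.

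**Figure D4:**
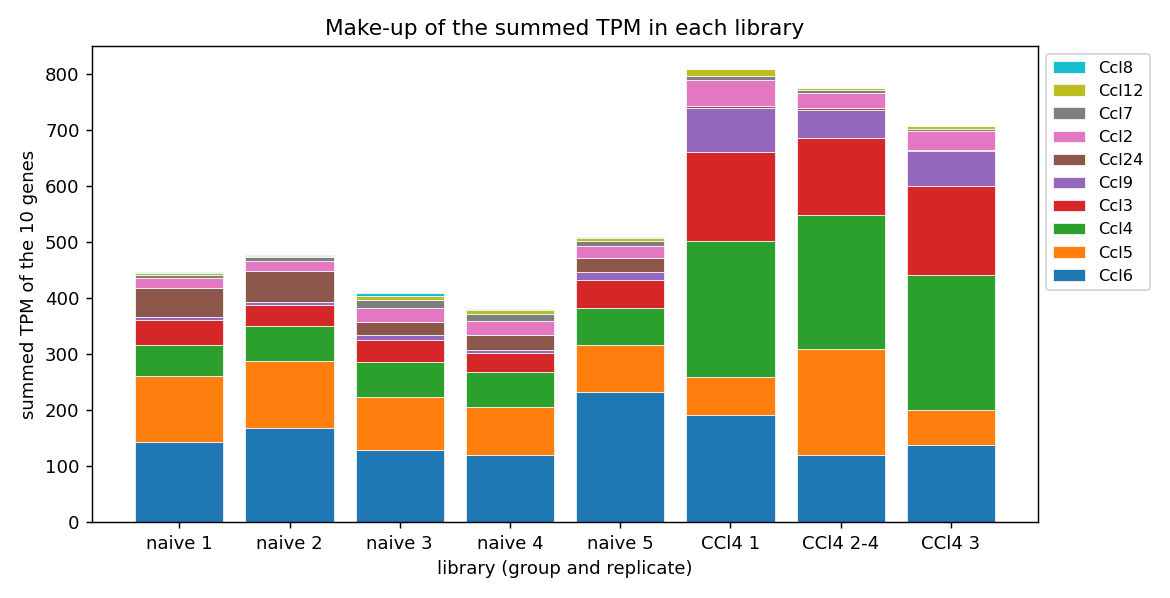
Stacked bars give the TPM of the 10 chemokine genes in each library, so the height is their summed TPM. The CCl4 bars reach 705.6 to 808.7 against 379.8 to 508.2 for naive libraries, with wider Ccl4, Ccl3 and Ccl9 segments and hardly any Ccl24.

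The receptors were read beside their ligands. Of 14 receptor genes described, 12 were tested, with a median log2 fold change of -0.33. By limma 3 were higher and 4 lower, where 15.3% and 22.5% of all tested genes were. The lower ones include Ccr3, which only naive libraries carried past the filter. Ccr1, the receptor of Ccl3, Ccl5, Ccl6 and Ccl9, was at 0.767 to 2.30 TPM in naive and 15.7 to 23.6 TPM in CCl4 libraries, and rose by 3.05 (SE 0.235, limma adjusted p = 4.68e-06). Ccr2, the receptor of Ccl2, Ccl7 and Ccl12, was at 11.6 to 38.2 and 181.5 to 307.3 TPM. Ccrl2, an atypical receptor that binds chemerin, rose by 2.37, from 19.3 to 25.4 TPM to 96.5 to 148.2 TPM. Of the monocyte markers, 5 of 7 tested were higher (15.3% of all tested genes were), and Ccr2 is itself among these 5. Their list had sums of 122.0 to 240.7 TPM in naive and 710.2 to 1054 TPM in CCl4 libraries. The rest of the list did not rise by limma. Ly6c2 (0 to 3.32 TPM in naive and 0 to 2.95 TPM in CCl4 libraries) and Plac8 (73.3 to 104.0 and 75.6 to 101.3 TPM) did not pass, and Chil3 and Vcan were below the filter.

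Receptors that take up CC chemokines without signalling for migration were lower. Ackr1, an atypical receptor of venular endothelium and red cells, was at 24.8, 35.6, 65.0, 42.5 and 12.8 TPM in naive and 0.867, 2.42 and 2.31 TPM in CCl4 libraries. Ackr2, a scavenger of inflammatory CC chemokines, was at 16.1 to 34.9 and 1.15 to 2.04 TPM, with a log2 fold change of -3.48 (SE 0.243, limma adjusted p = 2.61e-06). Ackr4 had a log2 fold change of -2.38. The 9 endothelial markers fell as well, and all of these receptors were lowest among naive libraries in replicate 5, as were all 9 endothelial markers, Clec4g among them at 1557 TPM. Their part in these falls was not tested. Ccr3, the receptor of Ccl24, was scarce, at 0.495 to 5.46 TPM in naive and 0.212 to 0.577 TPM in CCl4 libraries. The groups overlapped, and since no CCl4 library reached 1 TPM its call, lost under 8 of 16 other settings, is not read as a difference. Ccr8, the receptor of Ccl8, stayed below the filter at no more than 0.740 TPM.

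**Figure D5:**
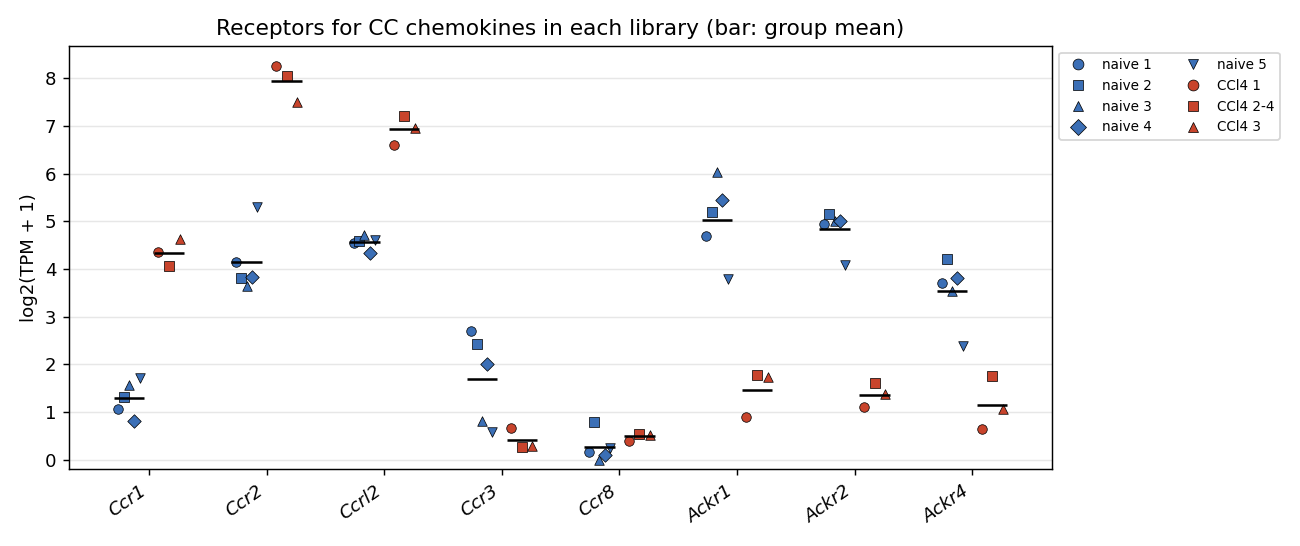
Points are log2(TPM + 1) of receptors for CC chemokines in each naive (blue) and CCl4 (red) library with bars at the group means. Ccr1, Ccr2 and Ccrl2 are higher in every CCl4 library than in any naive library and Ackr1, Ackr2 and Ackr4 lower.

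Of 11 further CC ligand genes listed, 6 were tested, with a median log2 fold change of -0.24. Ccl27a, which has near-identical gene copies and is therefore uncertain, alone passed, at 14.6 to 19.2 TPM in naive and 3.46 to 9.46 TPM in CCl4 libraries (log2 fold change -1.35, limma adjusted p = 0.00126). Ccl17 and Ccl22, dendritic cell ligands of Ccr4 chosen here after their values were seen, did not pass. Ccl17 reached 17.6 TPM in CCl4 replicate 2-4 and 9.62 TPM in naive replicate 5, and Ccl22 28.4 and 32.5 TPM in the same libraries. The log2 fold change of Ccl17 was 1.86 (limma adjusted p = 0.0514), and it passed under 6 of 20 other settings. These were a filter of a mean of 5 TPM, quantile normalization, library weights, the replicate block, and the fits without naive replicate 5 (2.37, limma adjusted p = 0.00232) and without CCl4 replicate 1 (2.53, limma adjusted p = 0.0171). For Ccl22 it was 0.36 (limma adjusted p = 0.605). Ccl20 was above 0 in only 1 library, and Ccl26 was listed at 0 in all.

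Genes of the NF-kappaB pathway, which induces Ccl2, Ccl3, Ccl4 and Ccl5 in macrophages, had 8 of 14 members higher and 2 lower. Their median log2 fold change was 0.84 (all tested genes -0.06). Of all tested genes 15.3% were higher and 22.5% lower, the shares to set beside the counts of this paragraph. Tnf rose by 2.23 (SE 0.273), Tnfaip3, an inhibitor of the pathway, by 1.59 and the subunit gene Rel by 1.73. Ptgs2, counted among the 8, was at 0.343 to 0.633 TPM in naive and 2.85 to 8.59 TPM in CCl4 libraries, so only the CCl4 libraries carried it past the filter. Il1a and Irf1 fell by 2.67 and 0.52, and the Irf1 call was lost without CCl4 replicate 1 (limma adjusted p = 0.0719) and without CCl4 replicate 3 (limma adjusted p = 0.0658). Genes of the response to interleukin-4, which induces Ccl24 in macrophages, went both ways, with 3 of 10 tested higher (Clec10a by 3.77, Mgl2 by 3.84, Irf4 by 1.67) and 3 lower (Mrc1, Arg1 and Tgm2, at -2.73, -2.03 and -1.03). The Arg1 call was lost under 2 of 20 other settings, among them without CCl4 replicate 3 (limma adjusted p = 0.0923). The Tgm2 call was lost under 3 of 20, among them without CCl4 replicate 2-4 (limma adjusted p = 0.0613) and without CCl4 replicate 3 (limma adjusted p = 0.0695). Like Ccl3 and Ccl4, 12 of 16 genes induced by tissue dissociation were higher in the CCl4 group, and none was lower (median log2 fold change 1.11). Their sums were 2498 to 3588 TPM in naive and 4823 to 7315 TPM in CCl4 libraries. Atf3 rose by 2.82, Zfp36 by 1.66, Btg2 by 1.34 and Fos by 1.20. Within the CCl4 group this sum was lowest in replicate 1, at 4823 TPM, against 7315 and 7123 TPM in replicates 2-4 and 3. In the same order Ccl3 was at 158.0, 138.8 and 157.9 TPM and Ccl4 at 241.9, 237.7 and 240.7 TPM. Among naive libraries the sum was lowest in replicate 5, at 2498 TPM, where Ccl3 and Ccl4 were highest, at 50.9 and 66.3 TPM. The part of dissociation in the chemokine levels was not tested.

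Of 8 neutrophil markers 3 were tested, and Csf3r was higher by limma. Of all tested genes 15.3% were higher and 22.5% lower, the shares to set beside the markers of this paragraph. Cxcr2, at 9.32 to 10.6 TPM in naive and 10.3 to 14.2 TPM in CCl4 libraries, did not pass. S100a9 was at 0.980 to 4.19 TPM in naive and 0.120 to 0.861 TPM in CCl4 libraries, so that naive libraries alone carried it past the filter. Ly6g was listed at 0 in all libraries. All 5 basophil and mast cell markers were below the filter. Of the eosinophil markers, cells that Ccl24 attracts, Siglecf, a lectin, was at 0.519 to 1.41 TPM in naive and 6.24 to 6.84 TPM in CCl4 libraries, Epx and Prg2 were below the filter, and Il5ra did not pass.

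The genes most like each member over the 8 libraries were sought among those with a mean of at least 10 TPM, by Pearson's r of log2(TPM + 1), a description over libraries that include the difference between the groups. Closest to Ccl24 were Ephx1 (r = 0.997), Pcolce2 (0.994) and the Kupffer cell marker C6 (0.993). For Ccl9 these were Plp2 (0.996), Mcub (0.994) and Tmem119 (0.994). Ptpre was near both Ccl3 (0.994) and Ccl4 (0.996), beside Sap30 and Sirpb1b for Ccl3 and Ank and Tagap for Ccl4. The closest gene was less like some members, with Nek6 for Ccl2 at 0.938, Kcnq1ot1 for Ccl5 at 0.957, Rinl for Ccl6 at 0.932 and Dedd for Ccl12 at 0.837.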

How the data were processed

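RNA-seq covered 5 naive and 3 CCl4 libraries of Kupffer cells. The authors deposited TPM for each RefSeq transcript, per the file headers. Library totals were 999999 to 1000001 TPM. Per the submitters' processing notes the authors used kallisto 0.42.4 and the build GRCm38. Per the labels' protocols the library kit was directional. Trimming, the index and any strand setting were not given in the sources used here. Since depth cannot be recovered from TPM, precision rests on replicate spread.

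Of 107384 transcripts, 86722 matched a gene of RefSeq GRCm38.p6 by accession without version and were summed to 32903 genes. Unmatched transcripts held 6.06% to 7.58% of the TPM. The 7SL and 7SK RNAs held 32.5% to 45.0% of it and protein-coding genes 45.5% to 56.0%, so fold changes were also computed after rescaling. A gene was tested if 3 or more libraries reached 1 TPM. The test was limma 3.58.1 (R 4.3.3) applied to log2(TPM + 1) values (intensity trend, group as the only term, Benjamini-Hochberg threshold 0.05). All 10 chemokine genes passed the filter, Ccl8 through naive libraries alone. A fold change on this scale understates the change of low genes. The fit was tested on simulated data with independent normal noise, which cannot show faults that come from cell make-up or a batch.

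The chemokine genes, lists, motifs and tests were chosen with earlier results of these data known. Named genes were all 10 members, the receptors of the members (except for a gene that is not reported here and was left out of the receptor counts), up to 4 called genes of each pathway list by adjusted p in each direction, up to 2 markers of each cell type by mean TPM and up to 3 genes most like each member. Dendritic cell, hepatocyte and stellate cell markers were also measured and are given in the closing section. Alternatives were other pseudocounts, filters and scalings, no trend, library weights, matching with version, a replicate block and leaving out each library.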

Additional observations from a re-analysis of the deposited data

Results flagged for a closer look

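The naive values of 18 quantities were screened for a library that lay far from the other naive libraries, relative to the range of the group (critical value 0.71 for 5 libraries), and 4 did. Chance gives such a value in about 1 in 20 groups. Ccl8 was at 5.995 TPM in naive replicate 3 and at 1.35 to 2.06 TPM in the others. Ccr2 was at 38.2 TPM in naive replicate 5 and at 11.6 to 16.8 TPM in the others. Ackr2 was at 16.1 TPM in naive replicate 5 and at 29.6 to 34.9 TPM in the others. Ccr8 was at 0.740 TPM in naive replicate 2 and at no more than 0.180 TPM in the others, all near the floor. None of the 9 other chemokine genes had such a naive library.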

How the results depend on the processing

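Over 20 other settings and left-out libraries Ccl3, Ccl4, Ccl9 and Ccl24 kept their direction and call, with log2 fold changes of 1.75 to 1.93, 1.89 to 2.04, 2.50 to 3.27 and -3.79 to -2.25. Without 1 library the number of chemokine genes called higher was 3 to 4, and the number called lower, with Ccl8 counted, 1 to 3 against 2 in all libraries. With a mean of at least 5 TPM required, 1 was called lower, since Ccl8 was then not tested, and matching transcripts with their version gave no value for Ccl12. The sign of Ccl5 was positive with median-of-ratios rescaling (0.0093), with quantile normalization (0.014), and without CCl4 replicates 1 (0.14) and 3 (0.21), its range without 1 library being -0.59 to 0.21. Ccl6 was positive with median-of-ratios rescaling (0.021), library weights (0.074) and the replicate block (0.25), and without CCl4 replicate 2-4 (0.074) and naive replicate 5 (0.079), with a range of -0.25 to 0.079 without 1 library. Without CCl4 replicate 1, Ccl12 was at -0.13 (range without 1 library up to 0.71), and without CCl4 replicate 2-4 Ccl22 was at -0.10 (up to 0.72). The cause was not tested. Quantile normalization moved the median of all genes from -0.064 to 0.105 and the share of calls that were higher from 40.5% to 56.5%. Libraries with a shared replicate number showed little correlation of their deviations from the group means (0.077 for number 1 and -0.041 for number 3). So few values cannot settle whether the libraries were paired. The fit with the replicate block, which compares in effect only those 2 numbers, called 5312 genes against 5906, and Ccl7 (-0.98) and Ccl12 (0.92) passed in it. Depth is unknown, so no limit from counting could be set for Ccl8 or Ccl12.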

Other observations

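Markers of other cells that can make or receive these chemokines were measured in the same libraries. Dendritic cell markers went both ways by limma, with 2 of 7 higher and 2 lower. Of all tested genes 15.3% were higher and 22.5% lower, the shares to set beside this and the following counts. Cd209a was at 0.444 to 14.7 TPM in naive and 125.0 to 165.7 TPM in CCl4 libraries, and Zbtb46 at 75.8 to 118.0 and 26.7 to 53.6 TPM. Of 6 hepatocyte markers 4 were lower and none higher. Alb, which did not pass, was at 335.8 to 749.8 TPM in naive and 112.8 to 536.9 TPM in CCl4 libraries. Its highest CCl4 value was in replicate 1, where every chemokine gene but Ccl5 and Ccl24 was also highest of the CCl4 group. For Ccl3 (158.0 against 157.9 TPM in replicate 3) and Ccl4 (241.9 against 240.7 TPM) the lead was slight. Among naive libraries Alb was highest in replicate 2, where only Ccl5 and Ccl24 of the chemokine genes were highest. The part of hepatocyte RNA in the chemokine levels was not tested. Of 7 stellate cell markers 2 were higher and 1 lower. Col1a1 was higher, at 1.78 to 17.4 and 33.5 to 46.5 TPM, and Col3a1 was at 3.16 to 30.2 and 42.0 to 46.2 TPM without passing the test. The other marker called higher was Pdgfrb. Lrat was lower (log2 fold change -0.78, limma adjusted p = 0.0383), and Dcn, Des and Reln did not pass. The median log2 fold change of the stellate cell list was 0.006. Among B cell markers Cd79b and Cd79a did not pass.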
